A study of Mus musculus with 9 samples.

Results

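Class I odorant receptors of the mouse were taken here as the receptor genes with symbols Olfr543 to Olfr692, which lie together on chromosome 7. Members were taken by symbol alone, as Olfr followed by a number in that range with or without a -ps suffix, which gave 146 of the 55291 genes in the table and left 1262 other odorant receptor genes for comparison. A member was called detected when its counts summed over the 9 mice reached 10, and 113 of the 146 members (77.4%) did so, against 996 of the other receptors (78.9%). The tissue was the main olfactory epithelium, taken for RNA sequencing from 9 mice on a C57BL/6 background between 8 and 12 weeks old. The 3 groups of 3 mice each were wild type, Ms4a6c-/- (a knockout made by homologous recombination) and Ms4a cluster-/- (a deletion of the Ms4a genes made with CRISPR/Cas9). Ms4a genes encode membrane proteins that the paper describes as odorant receptors, many of them in necklace sensory neurons. Necklace neurons are a small population apart from the neurons that express class I receptors. The paper places Ms4a1 outside the necklace, in a sparse set of sensory neurons of the main olfactory epithelium.

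Odorant receptors are G protein-coupled receptors, and each mature olfactory sensory neuron is known to express a single receptor gene from a single allele. Class I receptors resemble the receptors of fish, many respond to carboxylic acids and other hydrophilic odorants, and most of the neurons that choose one lie in the dorsal zone of the epithelium. The transcription factor Bcl11b acts in the choice between class I and class II receptors. In RNA from whole tissue, fewer neurons that express a receptor and less of its RNA per neuron cannot be told apart.

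The deleted genes were checked first. Ms4a6c had 54, 90.3 and 81.5 expected counts in the wild-type mice, 0, 2.35 and 2 in the Ms4a6c knockout mice. It had 0 in every mouse lacking the Ms4a cluster, in which all 21 Ms4a symbols of the table were at 0. Totals ran from 13954591 to 21987174 expected counts a mouse, of which 2615 to 12227 fell on class I receptors. A pair of libraries stood apart before any comparison: wild-type mouse 1 and cluster knockout mouse 2 held 148513 and 144749 CPM (counts per 1000000 library-scaled counts) of the nasal gland transcript Bpifb9b, against 235 to 30616 in the other 7, and their TMM scaling factors were 0.702 and 0.704 against 1.07 to 1.13. Where a sum, a share or a fit between genotypes rests on them, values without 1 or both of them are also given. The tissue label held: Omp, the marker of mature olfactory neurons, was between 4018 and 5215 CPM in every mouse.

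All 146 members lie between 102476579 and 105369355 on chromosome 7 (GRCm38), a span of 2893 kb, with 77 on the plus strand and 69 on the minus strand. The cluster is interrupted by the beta-globin genes and by a block of Trim genes, which leaves 84 members before the globin genes, 20 between globin and Trim genes and 42 after the Trim genes. The span also holds 10 receptor genes outside the rule, among them Olfr78 and Olfr64 to Olfr69. These 10 were counted among the other receptors whatever their class, so class I sums and shares leave them out. The annotation calls 120 members protein coding, 108 of which were detected. It calls 17 members unprocessed pseudogenes and none of these was detected, while 4 of 7 polymorphic pseudogenes and 1 of 2 transcribed unprocessed pseudogenes were. Of the 28 members with a -ps symbol, 6 were detected, and 14 members had 0 counts in every mouse.

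Several members are near copies of one another, which bears on what a count of one of them means. Over coding sequence, or the whole transcript of a gene without a coding part, 21 pairs that include a member were at least 95% identical along 300 bases or more. The closest pair was Olfr596 and Olfr603, which lie on opposite strands and differ at 5 of 936 coding bases (99.5% identity). A 120-base stretch of each, from coding base 361 to 480 counted from the A of the start codon, is shown with the bases that differ in capitals, A409G and C480T with the base of Olfr596 first, because 2 of the 5 differing bases lie in it. It lies at chr7:103310083-103310202 on the plus strand in Olfr596 and at chr7:103383521-103383640 on the minus strand in Olfr603.
Olfr596: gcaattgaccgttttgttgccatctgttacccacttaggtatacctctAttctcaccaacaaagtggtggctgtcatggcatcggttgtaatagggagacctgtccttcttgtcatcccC
Olfr603: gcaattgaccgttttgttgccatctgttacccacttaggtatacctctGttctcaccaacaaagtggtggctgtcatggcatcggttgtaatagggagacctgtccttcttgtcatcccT
The levels of this pair were far apart: Olfr596 was at 4.62, 5.21 and 4.21 CPM in the wild-type mice, while Olfr603 had 3 counts over all 9 mice and so was not detected. The remaining substitutions of the pair were T113C, C649T and T682C. The longest annotated transcript is 3392 bases in Olfr596 and 1021 bases in Olfr603.

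Olfr544, a receptor for azelaic acid, and its neighbour Olfr545 were 96.6% identical over 920 aligned coding bases, with 28 substitutions and 3 gaps. The 120-base stretch without gaps that held the most substitutions was picked, from coding base 539 to 658. It held 14 of them, shown here in capitals, at chr7:102484461-102484580 and chr7:102494116-102494235, both on the minus strand.
Olfr544: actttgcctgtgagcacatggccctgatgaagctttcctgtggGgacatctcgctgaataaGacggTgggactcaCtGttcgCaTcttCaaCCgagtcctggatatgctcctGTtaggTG
Olfr545: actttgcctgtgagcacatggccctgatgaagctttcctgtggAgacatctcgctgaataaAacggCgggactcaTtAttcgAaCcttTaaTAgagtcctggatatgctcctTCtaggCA
Here both copies were expressed. Olfr544 was at 5.12, 8.21 and 6.94 CPM in the wild-type mice and Olfr545 at 2.63, 2.77 and 2.62 CPM, so Olfr544 exceeded Olfr545 in each of these mice. Expected counts of both were not whole in 7 of 9 mice, as happens when reads that match several genes are divided among them. Among the 113 detected members, 83 had whole counts (within 0.005) in every mouse and 30 did not in at least 1. Pairs in which both genes had divided reads in all 9 mice were Olfr611 and Olfr612, Olfr635 and Olfr638, Olfr666 and Olfr668, and Olfr679 and Olfr681, and the levels of these single genes are uncertain to that degree. Near copies also exist for other members named below. Olfr598 was 98.1% identical to Olfr597 over 944 bases, and Olfr658 was 97.1% identical to Olfr503, a receptor outside the class, over 969 bases.

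Upstream sequence was given in RefSeq (GRCm38.p6) for 101 members, as 250 bases before to 50 after the annotated start. In 94 of them that start lies within 100 bases of a coding start, so the window was not taken as lying upstream of a transcript start. For 3 members the annotated start lay within 50 bases of a spliced transcript start and at least 200 bases from the coding start. Their windows are those of Olfr544 at chr7:102488258-102488557, Olfr566 at chr7:102858716-102859015 and Olfr630 at chr7:103757301-103757600, all on the minus strand. They are shown with any match to 3 motifs in capitals: CCCNNGGG, bound by Ebf factors, TAATTA, a homeodomain core, and TATAAA, the TATA box, each searched on both strands.
Olfr544: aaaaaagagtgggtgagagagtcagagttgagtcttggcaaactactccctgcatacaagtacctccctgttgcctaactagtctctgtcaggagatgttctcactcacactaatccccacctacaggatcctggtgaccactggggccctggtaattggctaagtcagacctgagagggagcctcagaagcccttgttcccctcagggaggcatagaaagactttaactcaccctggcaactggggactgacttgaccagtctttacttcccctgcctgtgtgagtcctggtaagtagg
Olfr566: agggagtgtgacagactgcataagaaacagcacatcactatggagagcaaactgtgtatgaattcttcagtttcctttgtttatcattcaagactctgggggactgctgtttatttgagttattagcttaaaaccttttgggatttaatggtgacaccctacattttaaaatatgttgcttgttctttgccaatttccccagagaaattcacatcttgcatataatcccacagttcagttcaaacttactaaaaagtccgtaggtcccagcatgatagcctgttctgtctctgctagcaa
Olfr630: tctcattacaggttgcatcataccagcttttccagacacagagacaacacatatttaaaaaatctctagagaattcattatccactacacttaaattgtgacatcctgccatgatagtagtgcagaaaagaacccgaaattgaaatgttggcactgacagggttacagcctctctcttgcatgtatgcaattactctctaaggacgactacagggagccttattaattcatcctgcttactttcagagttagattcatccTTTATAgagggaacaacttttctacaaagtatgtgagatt
The Olfr630 window held 1 match, to TATAAA on the opposite strand, and the other windows held none. Over all 32851 windows of this length, CCCNNGGG was found in 13.7%, TAATTA in 5.29% and TATAAA in 13.6%. The 3 genes were expressed at different levels in wild-type mice, with means of 6.76 CPM for Olfr544, 6.84 CPM for Olfr566 and 0.86 CPM for Olfr630.

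To describe the members in unmanipulated tissue, their levels in the 3 wild-type mice were examined. Class I receptors were many and individually low: the median detected member was at 3.02 CPM, beside 3.32 CPM for other detected receptors, and the highest, Olfr665, at 14.7 ± 2.08 CPM (SD, n = 3). The highest other receptor reached 163 CPM, and Olfr665 ranked 91 among all receptors, the only member among the first 100. Within the class the levels were spread widely, since the top 10 members held 24.1% of the summed class I level and 28 members were needed to reach 50% of it. After Olfr665 came Olfr598 (11.9 ± 0.48 CPM), Olfr592 (11.7 ± 2.39), Olfr653 (11 ± 2.0), Olfr672 (9.98 ± 1.05), Olfr615 (9.22 ± 0.41), Olfr552 (8.80 ± 2.70), Olfr681 (8.71 ± 2.73), Olfr689 (7.72 ± 2.10) and Olfr639 (7.17 ± 0.58). From Olfr598 down, neighbours in this order differed by less than the larger of their SDs.

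Long transcripts collect more reads, so levels between genes were also compared per kb of the longest annotated transcript. On that scale Olfr672 led with 6.70 CPM per kb, ahead of Olfr598 (5.89) and Olfr665 (4.53), and 4 of the 10 members highest in CPM remained among the first 10. The median detected member was at 0.99 CPM per kb, and the median other receptor at 1.11. Members with high and low levels alternated along chromosome 7, as the plot of levels along the cluster shows. The median level per kb of detected members was 0.89 before the globin genes, 0.76 between globin and Trim genes and 1.06 after the Trim genes, and these differences were not tested.

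**Figure D1:**
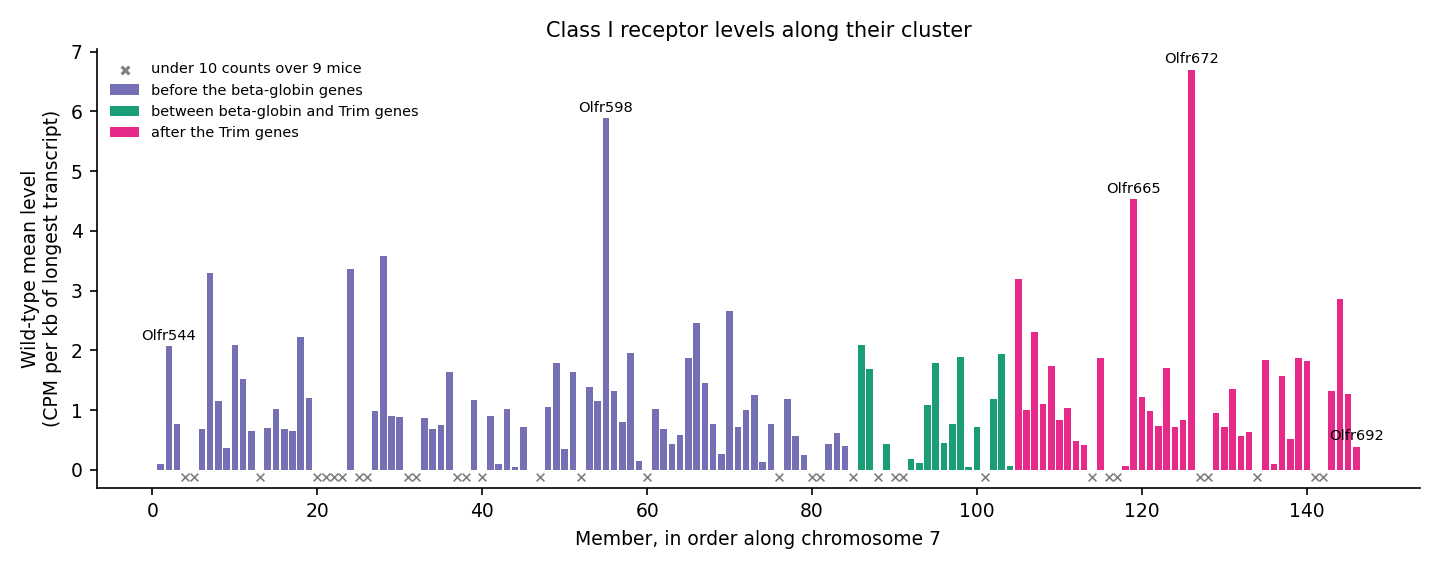
Mean level of each class I receptor in the 3 wild-type mice (CPM per kb of longest transcript), with members in their order along chromosome 7, coloured by their place relative to the beta-globin and Trim genes. Crosses mark the 33 members that were not detected. Olfr672 (6.70), Olfr598 (5.89) and Olfr665 (4.53) stand above the others, Olfr598 before the globin genes and the other two after the Trim genes.

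Members with a known ligand or an unusual site of expression were not among the highest. Olfr558, a receptor for isovaleric acid that is also found in blood vessel smooth muscle, was at 2.42, 1.66 and 2.16 CPM in the wild-type mice. Olfr691, a receptor for aliphatic acids, was at 3.84, 2.88 and 2.10 CPM. Olfr692, known from the vomeronasal organ, where it marks neurons that respond to pups, was at 0.64, 0.17 and 0.51 CPM, the second of which is the level of 3 counts. Summed smooth muscle markers (Acta2, Myh11 and Tagln) lay between 266 and 363 CPM in the wild-type mice, and the part of these cells in the Olfr558 level was not tested. The 3 highest members with a -ps symbol were Olfr588-ps1 (3.30 ± 0.10 CPM), Olfr548-ps1 (2.97 ± 0.52 CPM) and Olfr602-ps1 (0.17 ± 0.11 CPM). The first 2 of these are annotated as protein coding, and their levels lie close to that of the median detected member, whereas Olfr602-ps1, a transcribed pseudogene, sits at the level that 3 counts give (0.166 to 0.213 CPM in these mice).

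The summed class I level was then compared between genotypes. It was 388, 436 and 432 CPM in the wild-type mice, 501, 522 and 502 CPM in the Ms4a6c knockout mice, and 406, 261 and 515 CPM in the Ms4a cluster knockout mice. All 3 Ms4a6c knockout mice lay above all 3 wild-type mice, while the cluster knockout mice spanned both groups. The Ms4a6c knockout mean exceeded the wild-type mean by 89.8 CPM (508 ± 11.7 against 419 ± 26.8, SD, n = 3 each, ratio 1.21), and the exact two-sided permutation test gave p = 0.1, the smallest value that 3 against 3 mice allow. The difference was 74.4 CPM without the gland-rich libraries and 149 CPM with plain library sizes, a scaling that leaves the gland transcripts in the denominator. The cluster knockout mean was lower than the wild-type mean by 24.9 CPM (394 ± 127 against 419 ± 26.8, exact permutation p = 0.8). That difference changed sign to 41.7 CPM above wild type without cluster knockout mouse 2, and to 26.3 CPM above without both gland-rich libraries.

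Other receptors did not show the same order. Their summed level was 6232, 6672 and 6174 CPM in the wild-type mice, 6094, 6428 and 6263 CPM in the Ms4a6c knockout mice and 6294, 5497 and 5821 CPM in the cluster knockout mice, with overlap between all groups. The share of receptor counts held by class I genes does not depend on the scaling of the libraries. It was 5.86%, 6.14% and 6.54% in the wild-type mice, 7.60%, 7.51% and 7.42% in the Ms4a6c knockout mice and 6.06%, 4.53% and 8.12% in the cluster knockout mice. With 57769 to 160903 receptor counts a mouse, the 95% Wilson intervals, which cover counting error only, were narrow: 4.36% to 4.70% for the lowest mouse and 7.97% to 8.28% for the highest. The Ms4a6c knockout share was 1.33 percentage points above wild type (7.51% ± 0.09 against 6.18% ± 0.34, exact permutation p = 0.1, the smallest possible). The cluster knockout share was 0.059 points above wild type (6.24% ± 1.81, exact permutation p = 1), and this became 0.885 points below without cluster knockout mouse 3, 0.914 points above without cluster knockout mouse 2 and 0.10 points below without wild-type mouse 1.

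**Figure D2:**
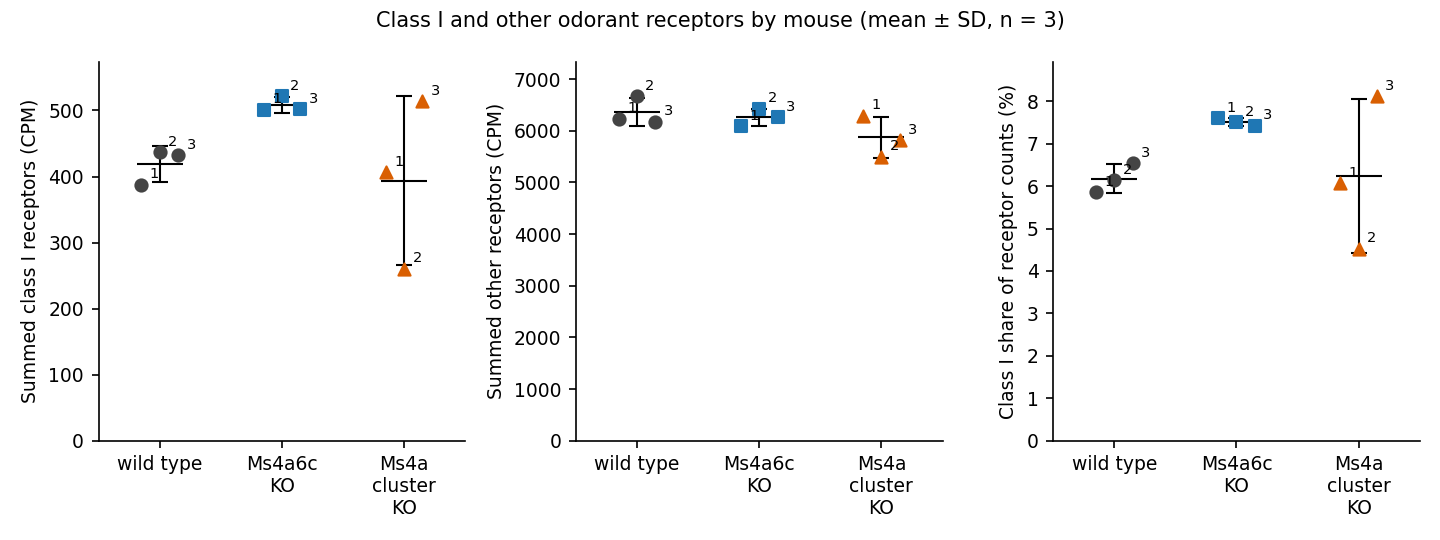
Summed class I receptors (CPM), summed other receptors (CPM) and the class I share of all receptor counts (%) in each mouse, with the mouse number beside each point and the mean ± SD (n = 3) in black. The Ms4a6c knockout mice lie above the wild-type mice in class I sum and share, and the cluster knockout mice run from 4.53% to 8.12%.

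The spread within the cluster knockout group was shared across the members. Cluster knockout mouse 2, a gland-rich library with the fewest receptor counts of the 9 (57769), was the lowest of the 9 mice for 72 of 113 detected members. Cluster knockout mouse 3 was the highest for 27. Among the 97 members with a mean of at least 1 CPM, 85 (87.6%) were lower in cluster knockout mouse 2 than in both other mice of its group, against 48.6% of 809 other receptors with such a mean. Within genotypes the median coefficient of variation (CV) of these members was 18.2% in wild type, 16.7% in the Ms4a6c knockout and 36.2% in the cluster knockout, beside 16.8%, 16.9% and 21.6% for other receptors. Members were not equally variable. Over the 9 mice the smallest CVs were those of Olfr571 (9.85%), Olfr615 (14.2%) and Olfr620 (15.7%), and the largest those of Olfr616 (63.3%), Olfr658 (52.5%) and Olfr624 (52.2%). Olfr571 lay between 3.85 and 5.21 CPM in every mouse, cluster knockout mouse 2 included (4.39 CPM). Olfr624 was at 0.20 CPM in cluster knockout mouse 2 and 2.86 CPM in cluster knockout mouse 3, and Olfr616 was high in a single mouse, Ms4a6c knockout mouse 3, at 3.63 CPM against 0.68 to 1.54 CPM elsewhere.

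Markers of the dorsal zone were examined beside these sums, in relations chosen after the values had been seen. Acsm4, a gene of the dorsal zone, was at 345, 349 and 358 CPM in the wild-type mice, 473, 457 and 436 CPM in the Ms4a6c knockout mice and 341, 240 and 485 CPM in the cluster knockout mice. Its order over the mice was nearly that of the class I share. Over the 9 mice the share followed log2 Acsm4 with Pearson's r = 0.987 (exact permutation p = 8.27e-06, adjusted 4.96e-05 over 6 relations) and Spearman's rho = 0.983 (exact permutation p = 4.96e-05, adjusted 0.000298). Without the 2 mice farthest from the median, cluster knockout mice 2 and 3, r was 0.979, and without the gland-rich libraries it was 0.982. Nqo1, an enzyme of dorsal neurons, was at 121, 140 and 143 CPM in wild type, 140, 161 and 152 CPM in the Ms4a6c knockout and 128, 59.6 and 160 CPM in the cluster knockout. It gave r = 0.855 (exact permutation p = 0.00051, adjusted 0.0015) and rho = 0.80 (exact permutation p = 0.0138, adjusted 0.0415), and r = 0.786 without wild-type mouse 1 and cluster knockout mouse 2, which are both the farthest from its median and the gland-rich libraries. The 9 mice span 3 genotypes, which the permutations ignored, and a group of 3 holds too few mice for a value of its own. Since the relations were chosen from these values, their p-values are given as a description. The dorsal genes move with the class I share, and their part in it was not tested.

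Relations with ventral genes, mature neurons and glands, chosen in the same way, had larger p-values. The ventral genes Ncam2 and Nrp2 gave r = 0.11 and -0.30, Omp gave 0.586 and the summed gland genes gave -0.388, with adjusted exact permutation p from 0.191 to 0.779. Without the gland-rich libraries these values moved and 3 of the 4 changed sign: Ncam2 gave -0.418, Omp -0.614 and the summed gland genes 0.565, while Nrp2 gave -0.612. Across single members with a mean of at least 1 CPM, log2 level and log2 Acsm4 correlated over the 9 mice with a median r of 0.735, given as a description since the values share their libraries. The r was above 0 in 95 of 97 members (97.9%) and in 66.1% of other receptors, whose median was 0.217. It was highest in Olfr610 (0.948) and Olfr597 (0.947) and below 0 in Olfr608 (-0.144) and Olfr550 (-0.049). Of these 4, Olfr610, Olfr597 and Olfr608 were named after their values were seen.

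**Figure D3:**
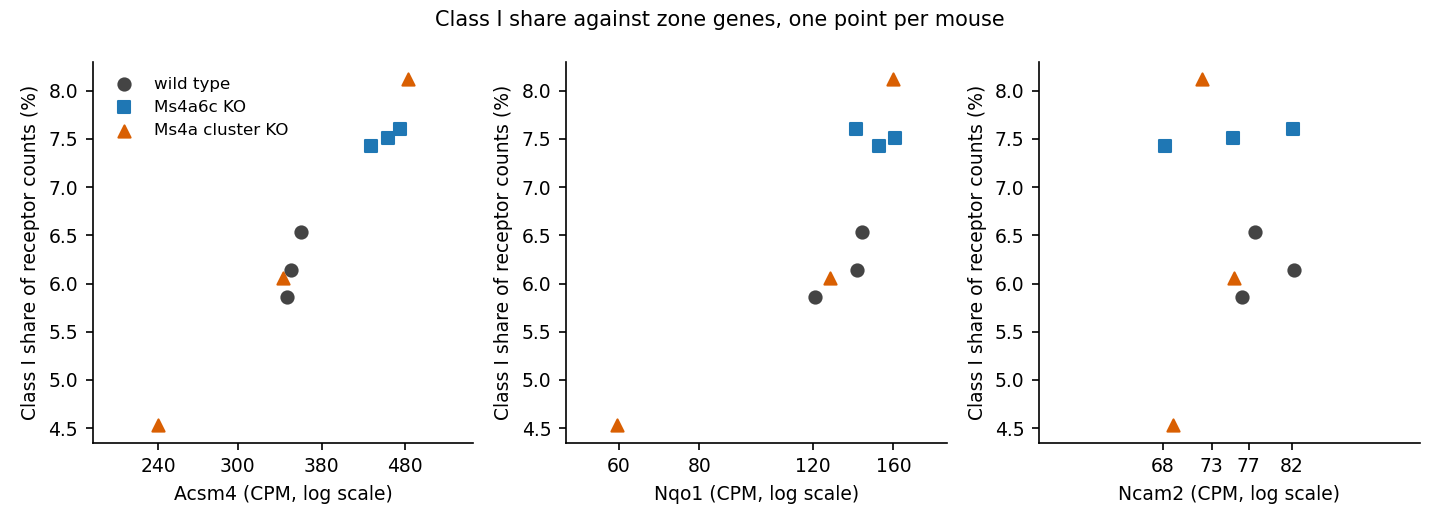
Class I share of receptor counts (%) against the level (CPM, log scale) of Acsm4 and Nqo1, genes of the dorsal zone, and Ncam2, a gene of the ventral zone, with 1 point per mouse and a colour and shape per genotype. The share rises along Acsm4 over mice of all 3 genotypes (r = 0.987), while the relation with Ncam2 gave r = 0.11, and -0.418 without the gland-rich libraries.

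Single members were tested with edgeR's quasi-likelihood test on all 23225 genes with at least 10 counts. None of the 113 members passed an adjusted p of 0.05 in any comparison, and DESeq2 called 0 in both comparisons with wild type. For the Ms4a6c knockout against wild type, 0.435% of all genes passed, for the cluster knockout against wild type 0.0258%, and for the cluster knockout against the Ms4a6c knockout 0.443%. At these rates a list of 113 genes would hold less than 1 gene, so the count of 0 is at the background. At an unadjusted p under 0.05 there were 12 members (11 higher, 1 lower) in the Ms4a6c knockout, where 10.5% of all genes had such a p. There were 7 members (3 higher, 4 lower) in the cluster knockout, against 4.93%. In the cluster knockout against the Ms4a6c knockout there were 18 members (1 higher, 17 lower), against 9.38%. In this order these were 10.6%, 6.19% and 15.9% of members, below the 12.6%, 9.44% and 16.8% of other receptors with such a p. These comparisons share their mice in pairs, so their values are not independent.

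In the Ms4a6c knockout most members had a small positive difference. The fitted log2 fold change was above 0 for 93 of 113 members (82.3%), against 49.7% of all genes and 55.4% of other receptors, and its median was 0.29 (quartiles 0.07 and 0.46) beside 0.05 in other receptors and -0.002 in all genes. In 28 members (24.8%) every Ms4a6c knockout mouse lay above every wild-type mouse, where 9.71% of all genes and 10.5% of other receptors did so. In 2 members (1.77%) every knockout mouse lay below, where 8.55% of all genes did so. The positive direction was seen in all stretches of the cluster: 51 of 64 members before the globin genes, 13 of 15 between globin and Trim genes and 29 of 34 after the Trim genes.

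Among the 97 members with a mean of at least 1 CPM over the 9 mice, the 3 highest fold changes were those of Olfr658, Olfr572 and Olfr629. Of the 16 detected members under that level, 6 had a higher fold change than these, and 0 passed the test. Olfr658 was at 1.21, 1.72 and 1.37 CPM in wild type and 2.99, 3.10 and 3.63 CPM in the Ms4a6c knockout, with a log2 fold change of 1.17 (SE 0.31, edgeR adjusted p = 0.202). Olfr572 was at 1.56, 0.72 and 0.97 CPM against 2.62, 1.99 and 2.55 CPM (1.15, SE 0.29, edgeR adjusted p = 0.177). Olfr629 was at 0.85, 2.22 and 1.65 CPM against 3.40, 2.67 and 3.89 CPM (1.06, SE 0.48, edgeR adjusted p = 0.478). In all 3 every knockout mouse lay above every wild-type mouse. Without the gland-rich libraries 2 members passed the threshold, Olfr572 (log2 fold change 1.5, edgeR adjusted p = 0.041) and Olfr667 (1.27, edgeR adjusted p = 0.0223), the second named because this count was small. These were 2 of 111 members (1.80%), where 1.54% of all genes passed in the same fit, so the count is near the background.

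At the same level limit, the 3 lowest fold changes in the Ms4a6c knockout were smaller in size than the 3 highest, and 1 of the 16 members under it was lower. Olfr575 was at 3.27, 3.11 and 2.79 CPM in wild type and 1.89, 1.67 and 2.10 CPM in the knockout, which did not overlap (log2 fold change -0.69, SE 0.29, edgeR adjusted p = 0.444). Olfr677 (-0.34, SE 0.41) and Olfr550 (-0.23, SE 0.18) followed, with edgeR adjusted p of 0.815 and 0.716. Of the members with known ligands, Olfr544 was at 11, 7.82 and 10.1 CPM in the Ms4a6c knockout (0.51, SE 0.26, edgeR adjusted p = 0.52), which overlaps wild type, while Olfr545, its near copy, was at 2.66, 2.54 and 2.23 CPM (-0.11, SE 0.29, edgeR adjusted p = 0.932). Olfr558 was at 1.60, 2.17 and 2.10 CPM and Olfr691 at 2.87, 5.15 and 3.70 CPM, both with overlap. Olfr692 was at 1.11, 1.61 and 1.21 CPM, above all 3 wild-type mice (1.58, SE 0.58, edgeR adjusted p = 0.363). Among the most abundant members, Olfr598 was at 14.8, 17.5 and 16.7 CPM, above all wild-type mice (0.45, SE 0.21, edgeR adjusted p = 0.482), and Olfr665 at 16.9, 19.1 and 16.3 CPM, which overlaps wild type.

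**Figure D4:**
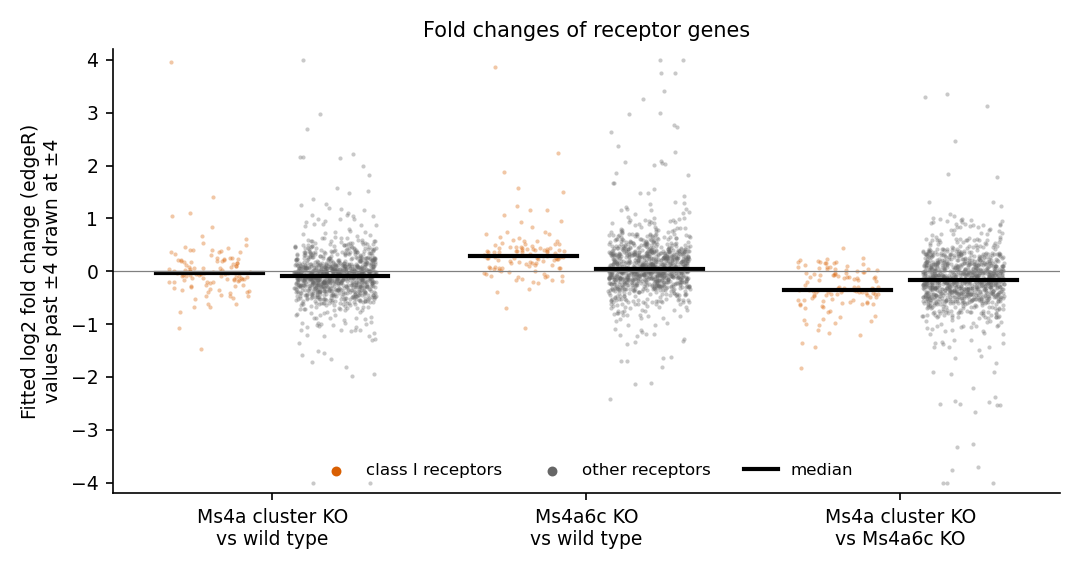
Fitted log2 fold change (edgeR) of each class I receptor (orange, n = 113) and each other detected receptor (grey, n = 996) in the 3 comparisons, with black bars at the medians. The class I median is 0.29 in the Ms4a6c knockout against wild type and -0.03 in the cluster knockout against wild type.

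In the cluster knockout against wild type the members were divided. The fitted log2 fold change was above 0 for 50 of 113 members (44.2%), against 51.7% of all genes and 37.9% of other receptors, with a median of -0.03 (quartiles -0.21 and 0.20) beside -0.09 in other receptors. Without cluster knockout mouse 2 the median was 0.19 with 77 of 112 members above 0, and without cluster knockout mouse 3 it was -0.29 with 28 of 111 above 0, so a single mouse decides its direction. In 4 members (3.54%) every cluster knockout mouse lay above every wild-type mouse, and in 3 (2.65%) every one lay below, where 4.71% and 5.15% of all genes did so.

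Among the 97 members with a mean of at least 1 CPM, the 3 lowest and 3 highest fold changes in the cluster knockout were these. Of the 16 members under that level, 5 had a higher and 2 a lower fold change, and 0 passed the test. Olfr582 was at 3.41, 3.61 and 3.87 CPM in wild type and 1.70, 1.3 and 3.21 CPM in the cluster knockout (log2 fold change -0.77, SE 0.32, edgeR adjusted p = 0.968), and is among the members whose counts were divided with a near copy. Olfr623 was at 1.78, 2.05 and 2.90 CPM against 1.3, 1.0 and 1.80 CPM (-0.68, SE 0.29), and Olfr681 at 5.76, 11.2 and 9.22 CPM against 4.16, 4.98 and 7.12 CPM (-0.68, SE 0.26), its reads divided with Olfr679. On the other side Olfr572 was at 1.65, 1.69 and 1.75 CPM, above all 3 wild-type mice (0.67, SE 0.30), Olfr599 at 5.71, 2.99 and 4.31 CPM against 3.27, 2.83 and 2.5 CPM (0.62, SE 0.24), and Olfr642 at 5.31, 3.79 and 6.42 CPM against 4.34, 3.27 and 3.19 CPM (0.54, SE 0.24). All 6 had an edgeR adjusted p of 0.968. Olfr572 was above wild type in both knockouts, which share the wild-type mice.

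Between the knockouts, the fitted log2 fold change of the cluster knockout against the Ms4a6c knockout was above 0 for 24 of 113 members (21.2%), against 51.4% of all genes and 34.3% of other receptors. Its median was -0.35 in members, -0.16 in other receptors and 0.007 in all genes, so other receptors were shifted in the same direction. Without cluster knockout mouse 2 the members' median was -0.13. The lowest adjusted p was that of Olfr623, at 4.30, 4.16 and 2.87 CPM in the Ms4a6c knockout and 1.3, 1.0 and 1.80 CPM in the cluster knockout (-1.43, SE 0.29, edgeR adjusted p = 0.0876). DESeq2 called 4 of 113 members (3.54%) in this comparison, where it called 1.17% of all genes, all 4 lower in the cluster knockout: Olfr623 (DESeq2 adjusted p = 0.00769), Olfr667 (0.0216), Olfr658 (0.0364) and Olfr652 (0.0419), the second and the last named after their values were seen. In edgeR 1 member passed without a filter on low counts, Olfr623, where 0.498% of all genes did, and 1 without cluster knockout mouse 3, Olfr658, where 0.333% did.

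**Figure D5:**
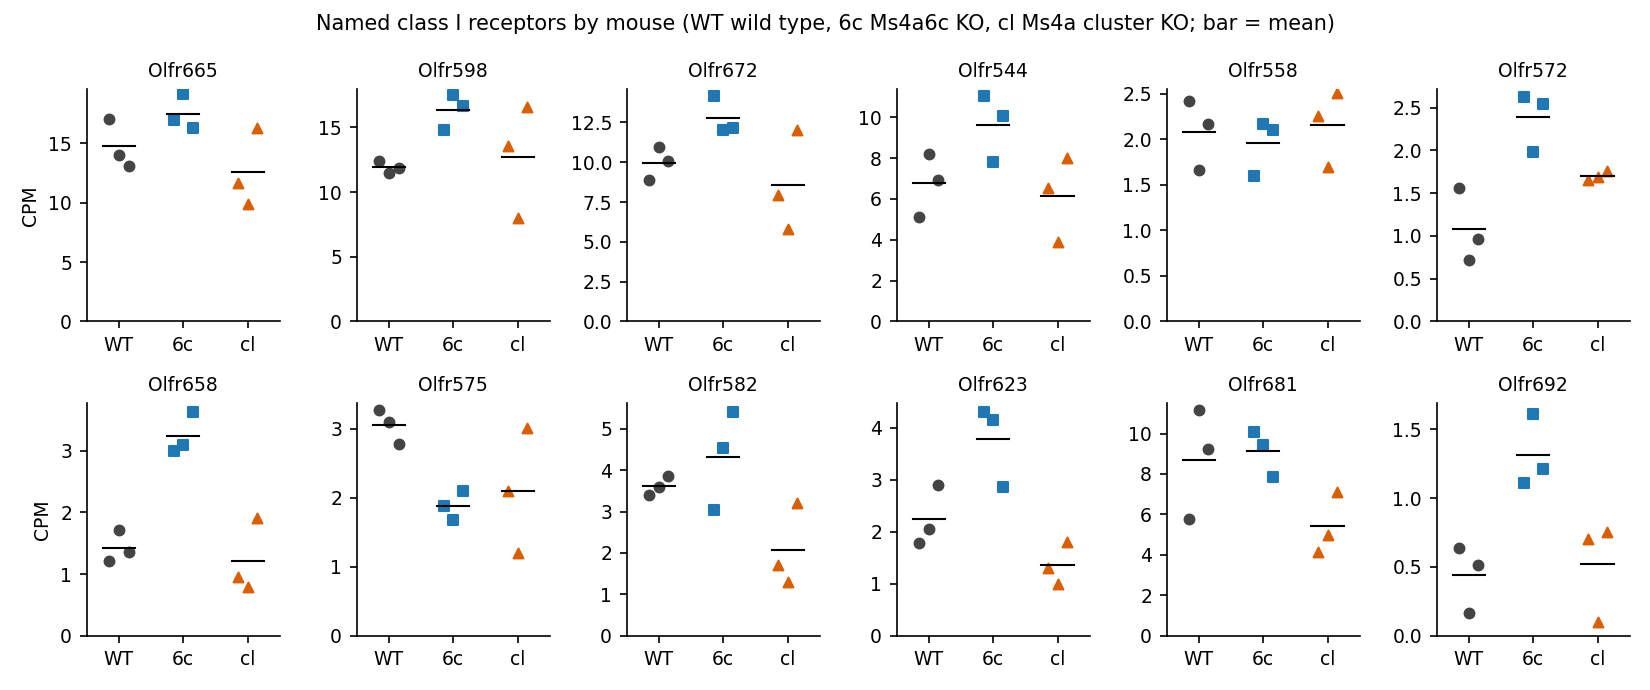
Levels (CPM) of 12 class I receptors in each mouse of the 3 genotypes, with the group mean as a bar. For Olfr658 and Olfr572 all Ms4a6c knockout points lie above the wild-type points, for Olfr575 they lie below, and Olfr558 overlaps in all groups.

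The other genes of receptor choice were described from a list of 12 genes. It holds Lhx2, Ldb1 and the Ebf factors, which bind receptor enhancers and promoters, Bcl11b, and genes of the feedback that fixes the choice such as Kdm1a, Atf5 and Lbr. All 12 were measured, and 0 passed the test in any comparison, with 0 at an unadjusted p under 0.05 in edgeR and 0 called by DESeq2 as well. Bcl11b was at 35.5, 44.2 and 46.9 CPM in wild type, 41.4, 38.0 and 40.3 CPM in the Ms4a6c knockout and 48.4, 35.9 and 45.5 CPM in the cluster knockout, so all groups overlapped. Neither dorsal gene (Acsm4, Nqo1) nor ventral gene (Ncam2, Nrp2) passed the test, Acsm4 having a log2 fold change of 0.38 (SE 0.19, edgeR adjusted p = 0.528) in the Ms4a6c knockout.

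Genes that lie inside the class I cluster without being receptors were a further list, of globin, Trim and ubiquilin genes, of which 19 lie within the span and 12 were tested. None passed the threshold in edgeR or DESeq2. In the Ms4a6c knockout 4 of the 12 had an unadjusted p under 0.05, where 10.5% of all genes did. Among these 4, the adult beta-globin gene Hbb-bs was at 291, 690 and 797 CPM in the knockout mice against 249, 344 and 253 CPM in wild type. Red cell markers outside the cluster, Hba-a1, Hba-a2 and Alas2, were high in the same 2 of these mice, and the part of blood in the globin values was not tested.

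Among markers of other cells, 1 of 14 mature neuron genes passed the test, Gng13, the olfactory G protein gamma subunit, lower in the Ms4a6c knockout (log2 fold change -0.89, SE 0.09, edgeR adjusted p = 0.00121), which was higher in the cluster knockout than in the Ms4a6c knockout (0.95, SE 0.09, edgeR adjusted p = 0.00073). No gene of the immature neuron, globose basal, horizontal basal, sustentacular, gland, red cell, smooth muscle or B cell lists passed in edgeR. In the Ms4a6c knockout against wild type 3 of 4 sustentacular, 1 of 4 gland and 5 of 5 red cell genes had an unadjusted p under 0.05, where 10.5% of all genes did. DESeq2 called 2 genes of these lists there, the sustentacular genes Cyp2g1 (higher) and Ermn (lower), where it called 1.49% of all genes. The gland gene was Obp2a, at 31561 CPM in the gland-rich wild-type mouse 1 against 411 and 29.0 CPM in wild-type mice 2 and 3. The summed sustentacular markers ran from 5553 to 5684 CPM in wild type, 6526 to 7044 in the Ms4a6c knockout and 5323 to 5869 in the cluster knockout. Most of that sum was Cyp2g1, at 4567, 4678 and 4582 CPM in wild type and 5763, 5983 and 5500 CPM in the Ms4a6c knockout. The 4 genes were split in the Ms4a6c knockout. Cyp2g1 and Cyp1a2 were higher in every knockout mouse than in every wild-type mouse (log2 fold changes 0.32 and 0.26). Ermn was lower in every one (-0.41), and Krt18 overlapped wild type (0.004). The part of sustentacular cells in the class I difference was not tested. Summed immature neuron markers overlapped, at 65.7 to 114 CPM in wild type, 72.6 to 98.9 in the Ms4a6c knockout and 84.4 to 110 in the cluster knockout.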

How the data were processed

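The authors prepared directional poly-A libraries from the main olfactory epithelium, sequenced them as paired ends, aligned reads with STAR 2.6.1 and quantified them with RSEM 1.3.1 on GENCODE M25 (GRCm38), and deposited expected counts per gene, which divide reads shared by several genes and are not normalized. Expected counts were rounded, 23225 genes with at least 10 counts over the 9 mice were scaled by TMM, and all genes were tested in 1 model of the 9 mice with edgeR 4.0.16 (quasi-likelihood, Benjamini-Hochberg adjustment over all genes; R 4.3.3). Standard errors are the log2 fold change over the square root of F. CPM are TMM-scaled counts per 1000000 counts. Sums and shares were compared by exact two-sided permutation tests (scipy 1.17.1). Coding sequences, whole transcripts of receptor genes without a coding part, and coordinates came from GENCODE M21, to which 99.6% of genes were matched. The sequences were compared with BLAST 2.17.0. The fitting code was tested on simulated data.

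The class I members and the gene lists were chosen with earlier results of these data known. Named members were the 10 most abundant in wild type, those past the threshold, the 3 highest and 3 lowest fold changes of each knockout against wild type and the 3 largest and smallest CVs (mean of at least 1 CPM), 5 receptors with a known ligand or site, and the 3 most abundant -ps members. P-values measure the spread between these mice. DESeq2 1.42.0 was an alternative.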

Additional observations from a re-analysis of the deposited data

How the results depend on the processing

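The count of members past an adjusted p of 0.05 in edgeR was 0 for the cluster knockout and wild type under every alternative run: DESeq2 size factors, receptor counts as library size, 2 other filters on low counts, 2 genotypes only, a replicate block, leaving out each mouse, DESeq2, an adjusted p under 0.01, and leaving out the gland-rich libraries, an alternative chosen after seeing the data. In the Ms4a6c knockout against wild type it was 2 of 111 without the gland-rich libraries (1.80%, against 1.54% of all genes) and 0 otherwise. In the cluster knockout against the Ms4a6c knockout it was 1 without a filter (0.758%, against 0.498% of all genes), 4 with DESeq2 (3.54%, against 1.17%), 0 to 1 when each mouse was left out (1, Olfr658, without cluster knockout mouse 3, 0.901% against 0.333%) and 0 otherwise. When each mouse was left out, the median member log2 fold changes ran from -0.29 to 0.19, from 0.24 to 0.33 and from -0.56 to -0.13 in these comparisons. The Ms4a6c median was 0.35 without a filter, a setting with more low genes. Receptor counts as library size moved the median of all genes to 0.12 in both comparisons of the cluster knockout; the members' median was then 0.06 against wild type, below that shift.

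With each mouse left out, the summed class I level differed from wild type by -85.3 to 41.7 CPM in the cluster knockout and by 74.4 to 98.6 CPM in the Ms4a6c knockout. The class I share differed by -0.885 to 0.914 and by 1.17 to 1.51 points. The cluster knockout sum reversed without cluster knockout mouse 2 (41.7 CPM) and without both gland-rich libraries (26.3 CPM), and its share reversed without cluster knockout mouse 3 (-0.885) and without wild-type mouse 1 (-0.10), where the cause was not tested. The other alternatives for sums and shares kept the direction, and none could pass with 3 mice a group. Of the 10 most abundant members, 4 remained so per kb. Detection of over 3 counts in every mouse left 96 members and 50 counts left 104.

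Replicate numbers are not stated to pair the mice, and deviations of same-numbered mice correlated from -0.475 to 0.077. The gland-rich libraries, wild-type mouse 1 and cluster knockout mouse 2, correlated with each other at 0.423. They also enter the lowest same-numbered values (-0.475 and -0.334), so this check cannot decide whether mice were paired. The paper describes the wild-type mice as littermate controls, and litters were not used here. With the number as a block, 0 members were called in each comparison, and the Ms4a6c sum and share had an exact sign permutation p of 0.25, the smallest possible with 3 pairs. Protein sequences were not used here.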
